A study of Bos grunniens x Bos taurus and Bos grunniens with 6 samples.

Results

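The genes for the inhibin and activin subunits, for follistatin and its relatives and for anti-Müllerian hormone were examined in testis tissue. They were chosen by gene symbol alone (INHA, INHBA, INHBB, FST, FSTL1, FSTL3 and AMH), and each of the 7 symbols stood on a single row of the 18918 genes in the table, with no symbol missing. Testis RNA was sequenced from 3 cattle-yak (TES5, TES6 and TES7), which are F1 males from Jersey bulls and Gannan yak cows, and from 3 Gannan yak (Yak8, Yak9 and Yak10). All animals were males of 4 years, and each gave its own library. Per the study's methods the groups came from different counties. The methods also give castration as the source of the cattle-yak testes and euthanasia for the yak, where the labels give castration for all, so place and collection cannot be told apart from the cross.

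Inhibins and activins are dimeric hormones of the TGF-beta family that share their beta subunits. An alpha subunit from INHA joins a beta subunit to form inhibin, whereas a pair of beta subunits from INHBA or INHBB forms activin. Inhibin B from Sertoli cells, the somatic cells that nurse the germ cells inside the seminiferous tubule, holds back the release of follicle-stimulating hormone from the pituitary. Activin binds a type II receptor and a type I receptor and acts through SMAD2 and SMAD3, and follistatin and FSTL3 trap it before it reaches them. AMH, the Sertoli cell hormone that makes the Müllerian ducts regress in the male fetus, is high in the immature testis and declines at puberty.

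Expression is given as FPKM, the fragments scaled to the length of the gene model and the depth of the library. From the FPKM values the whole fragments behind them were recovered, and the libraries held 11175100 to 11834987 fragments on genes in cattle-yak and 12991641 to 13136129 in yak. Pearson's r of log10 (FPKM + 1) across genes was 0.985 to 0.991 for the 6 pairs of libraries within a group and 0.735 to 0.792 for the 9 pairs between groups, and no library stood apart from its group. Replicate libraries were not copies of each other, since the median chi-square per gene between them was 2.51 to 4.12, where sampling noise alone gives 0.455. Groups were compared with limma on log2 (FPKM + 1), over 15042 genes with a mean of at least 0.5 FPKM. Calls needed a log2 (foldchange) beyond 1 with a p, adjusted by Benjamini-Hochberg, under 0.05. The scale understates the change of genes with low values.

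Of the 7 genes, 6 were in this comparison and all 6 were called higher in cattle-yak. INHA rose most and AMH least, and FST was too low to be tested. Calls in this direction were common, at 33.4% of all tested genes, and in 53.9% every cattle-yak value lay above every yak value, as it did for these 6 genes, beside 30.2% with every value below. With a pseudocount of 0.1 all 6 were called beside 39.4% of all genes higher and 22.7% lower, and with voom on the recovered fragments beside 39.7% and 22.7%. The median log2 (foldchange) over all tested genes was 0.51, and the 6 genes lay between 1.23 and 2.80.

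**Figure D1:**
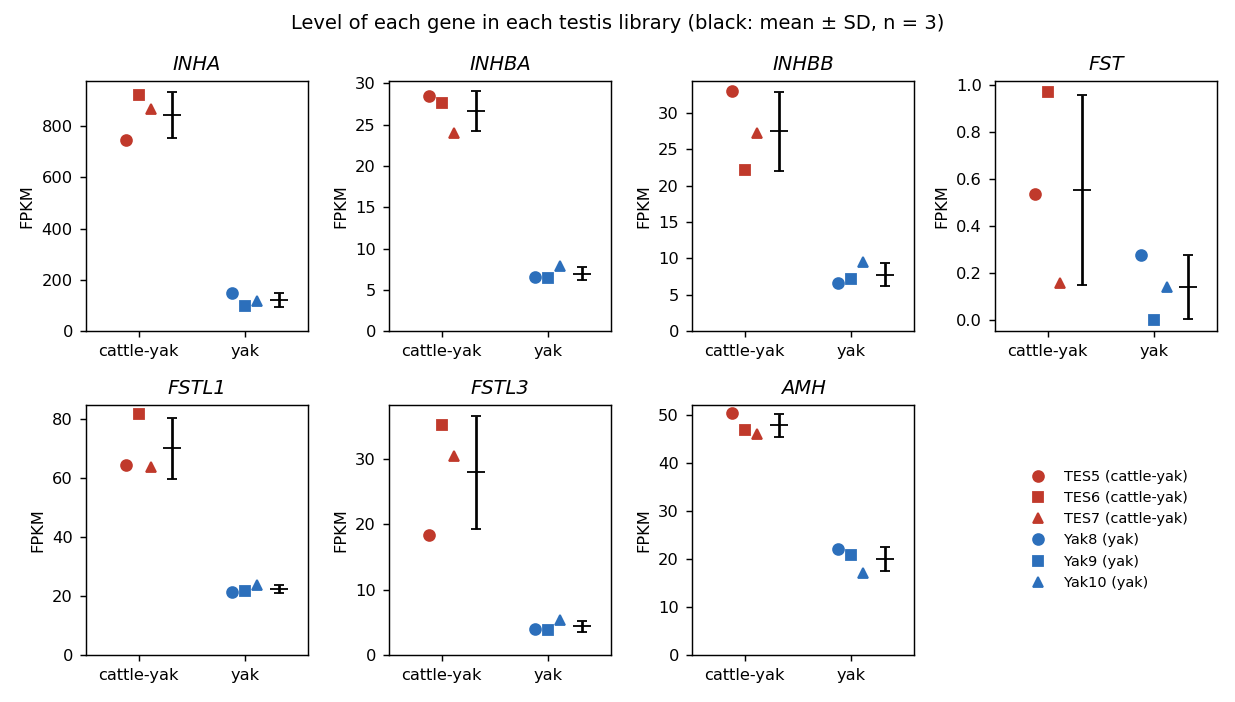
FPKM (vertical axes, linear, with a separate scale for each gene) of the 7 genes in the 3 cattle-yak (red) and the 3 yak (blue) libraries, with the mean and SD of each group in black. The groups are separate for every gene except FST, whose cattle-yak library TES7 (0.156 FPKM) lies below the yak library Yak8 (0.275 FPKM).

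INHA encodes the alpha subunit, which only the inhibins contain. INHA (ENSBGRG00000018527) had 744 FPKM in TES5, 920 in TES6 and 865 in TES7, against 150 in Yak8, 96.8 in Yak9 and 118 in Yak10. The lowest cattle-yak value was 4.96 times the highest yak value. The group means were 843 ± 90.0 and 122 ± 26.8 FPKM (SD, n = 3 each), a 6.92-fold difference where log2 (foldchange) was 2.80 (SE, the standard error, 0.16, limma adjusted p = 1.5e-06). By FPKM, INHA ranked 48 to 66 among all genes of a cattle-yak library and 768 to 1304 in a yak library. It rested on 9541 to 11139 fragments in cattle-yak and 1374 to 2136 in yak, so counting error was small beside the spread between animals. Its log2 (foldchange) was larger than that of 99.2% of the tested genes.

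INHBA encodes the beta A subunit, shared by inhibin A and activin A. INHBA (ENSBGRG00000009678) had 28.5, 27.6 and 23.9 FPKM in TES5, TES6 and TES7, and 6.51, 6.48 and 7.89 in Yak8, Yak9 and Yak10. Its groups were tight, with coefficients of variation of 9.09% in cattle-yak and 11.6% in yak, and they did not overlap. The means of 26.7 ± 2.43 and 6.96 ± 0.81 FPKM (SD, n = 3 each) gave a log2 (foldchange) of 1.80 (SE 0.13, limma adjusted p = 4.4e-06).

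INHBB encodes the beta B subunit, which makes inhibin B and activin B. INHBB (ENSBGRG00000002649) had 33.1 FPKM in TES5, 22.1 in TES6 and 27.3 in TES7, against 6.64 in Yak8, 7.15 in Yak9 and 9.54 in Yak10. TES6, the cattle-yak library highest for INHA, was the lowest for INHBB, and Yak8, the highest yak library for INHA, was the lowest of the yak for INHBB. With 27.5 ± 5.48 and 7.78 ± 1.55 FPKM (SD, n = 3 each) the log2 (foldchange) was 1.69 (SE 0.18, limma adjusted p = 4.4e-05). The 95% intervals of the log2 (foldchange) overlapped between INHBA (1.50 to 2.10) and INHBB (1.27 to 2.12), and both ended below that of INHA (2.42 to 3.18).

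Follistatin and FSTL3 are secreted proteins that bind activin, and FSTL1 is a secreted glycoprotein with a follistatin domain that is made mainly by connective tissue cells. FSTL3 (ENSBGRG00000005882) had 18.3 FPKM in TES5, 35.2 in TES6 and 30.4 in TES7, and 4.00, 3.84 and 5.34 in Yak8, Yak9 and Yak10. TES5 had the lowest FSTL3 and the highest INHBB of the cattle-yak animals, and it still stood 3.43 times above the highest yak value. The group means were 28.0 ± 8.69 and 4.39 ± 0.82 FPKM (SD, n = 3 each), with a log2 (foldchange) of 2.39 (SE 0.24, limma adjusted p = 2.7e-05), the second largest of the 6 genes. It also varied most among cattle-yak of the tested genes of this family (coefficient of variation 31.1%), and its log2 (foldchange) ran from 2.20 without TES6 to 2.65 without TES5.

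FSTL1 (ENSBGRG00000002621) had 64.3, 81.7 and 63.7 FPKM in TES5, TES6 and TES7, against 21.3, 21.7 and 23.8 in Yak8, Yak9 and Yak10. The yak animals were nearly level, while TES6 stood above the other cattle-yak. The means of 69.9 ± 10.2 and 22.3 ± 1.35 FPKM (SD, n = 3 each) gave a log2 (foldchange) of 1.60 (SE 0.12, limma adjusted p = 6.4e-06). FSTL1 and AMH lost their calls under median-of-ratios scaling, which brings the median of all tested genes to about 0. Their log2 (foldchange) values were then 0.997, just under the threshold, and 0.63. With voom and the same factors FSTL1 kept its call, with 1.02. With that scaling 17.6% of all tested genes were called higher and 27.9% lower, and INHA, FSTL3, INHBA and INHBB kept their calls with 2.18, 1.83, 1.23 and 1.12.

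FST, the gene of follistatin itself, was the lowest of the genes, under 1 FPKM in every library. FST (ENSBGRG00000020668) had 0.534 FPKM in TES5, 0.970 in TES6, 0.156 in TES7, 0.275 in Yak8 and 0.139 in Yak10 and was listed at 0 in Yak9, where the 3 fragments that a count of 0 allows correspond to 0.207 FPKM. These values stood for 7, 12 and 2 fragments in TES5, TES6 and TES7 and for 4, 0 and 2 in Yak8, Yak9 and Yak10. The groups overlapped. Summed over animals, 21 fragments against 6 gave a ratio of 3.97 per depth (exact binomial 95% interval 1.55 to 12.0, which covers counting error only and not the spread between animals). Without a filter on low values FST had a log2 (foldchange) of 0.42 (SE 0.19, limma adjusted p = 0.090). With every value under 1 FPKM, a log2 (foldchange) beyond 1 was not possible on the FPKM + 1 scale. This fit thus could not have called FST, and it detected no difference beyond the spread between animals.

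AMH (ENSBGRG00000001773) had 50.6 FPKM in TES5, 46.9 in TES6 and 46.2 in TES7, against 22.1 in Yak8, 20.8 in Yak9 and 17.1 in Yak10. It was the most even of the genes among cattle-yak, with a coefficient of variation of 4.86%. The means of 47.9 ± 2.33 and 20.0 ± 2.58 FPKM (SD, n = 3 each) differed 2.40-fold, with a log2 (foldchange) of 1.23 (SE 0.12, limma adjusted p = 2.3e-05). This change was the smallest of the 6 genes and exceeded that of 73.7% of all tested genes on the FPKM + 1 scale. AMH rested on 942 to 2536 fragments per library over a gene model of 4237 bases, the longest of the 7. The row carries no description, and whether this model also takes in other transcripts was not checked, so every AMH value here is that of the row.

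In order of level per length, INHA came first in every library and FST last. In cattle-yak FSTL1 and AMH followed INHA with separate ranges, and FSTL3, INHBB and INHBA then shared overlapping ranges. In yak the ranges of FSTL1 and AMH overlapped, as did those of INHBB and INHBA, and FSTL3 (3.84 to 5.34 FPKM) lay below both beta subunits. FSTL3 thus stood below the beta subunits in all 3 yak and above both of them in TES6 and TES7. The lengths recovered with the fragments were 1083 bases for INHA, 1227 for INHBB, 1107 for FST, 1374 for FSTL1, 1730 for FSTL3 and 3978 for INHBA. Comparisons of level between genes depend on these models, whose untranslated parts were not examined here.

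The deposited annotation placed INHA, INHBA, INHBB and AMH together under growth factor activity, with 109 genes of the table in that GO term, and under the KEGG pathway of cytokine-cytokine receptor interaction, with 248. INHA and INHBA were the only 2 genes of the table annotated to the inhibin A complex. FST and FSTL3 shared activin binding, a term on 14 genes.

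Ratios between these genes within a library do not depend on how libraries are scaled to each other, and they ask whether the subunits and their antagonists kept their proportions. Summed beta subunit RNA per alpha subunit RNA was lower in every cattle-yak than in any yak, at the limit of what 3 animals against 3 can show. INHA had a larger log2 (foldchange) than 99.2% of the tested genes, so a lower ratio to INHA is not particular to the beta subunits or AMH. The summed INHBA and INHBB level was 0.0827, 0.0540 and 0.0592 of the INHA level in TES5, TES6 and TES7, against 0.0875, 0.141 and 0.147 in Yak8, Yak9 and Yak10. TES5 and Yak8 came close, but the groups did not overlap. The difference was −0.93 on the log2 scale (exact permutation test, two-sided, p = 0.1, adjusted over the 8 ratios 0.267), and 0.1 is the smallest p that 3 animals against 3 allow. For INHBA alone the log2 ratio to INHA differed by −0.87 without overlap (exact p = 0.1, adjusted 0.267). For INHBB it differed by −0.99, but TES5 (0.0444) lay just above Yak8 (0.0442), and the exact permutation test gave p = 0.2 (adjusted 0.32).

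The ratio between the beta subunits was similar in both groups. INHBB stood at 1.16, 0.799 and 1.14 times INHBA in TES5, TES6 and TES7 and at 1.02, 1.10 and 1.21 times in Yak8, Yak9 and Yak10. The groups overlapped, and the log2 difference of −0.12 was within the spread among animals (two-sided exact permutation test, p = 0.7, adjusted 0.8).

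FSTL3 per unit of summed beta subunit RNA was 0.707 in TES6 and 0.594 in TES7, both above the yak values of 0.305, 0.281 and 0.306 in Yak8, Yak9 and Yak10. TES5, with 0.298, lay within the yak range. The log2 difference of 0.75 did not pass the test (exact permutation test, two-sided, p = 0.3, adjusted 0.4), and without TES5 it was 1.12. FST per unit of beta subunit RNA was at most 0.0209 in any library and overlapped between the groups (exact permutation test, two-sided, p = 0.9).

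The ratio of AMH to INHA separated the groups most. INHA had the largest and AMH the smallest log2 (foldchange) of the 6 tested genes, so this order follows from those changes. AMH stood at 0.0679, 0.0510 and 0.0534 of the INHA level in TES5, TES6 and TES7, and at 0.147, 0.215 and 0.144 of it in Yak8, Yak9 and Yak10. No cattle-yak value reached the yak range, and the log2 difference of −1.54, the largest of the ratios compared on the log2 scale, lay between −1.67 and −1.35 with each animal left out (exact permutation test, two-sided, p = 0.1, adjusted 0.267). Against INHBB, AMH differed by −0.55 on the log2 scale, with overlapping groups (exact permutation test p = 0.2, adjusted 0.32).

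**Figure D2:**
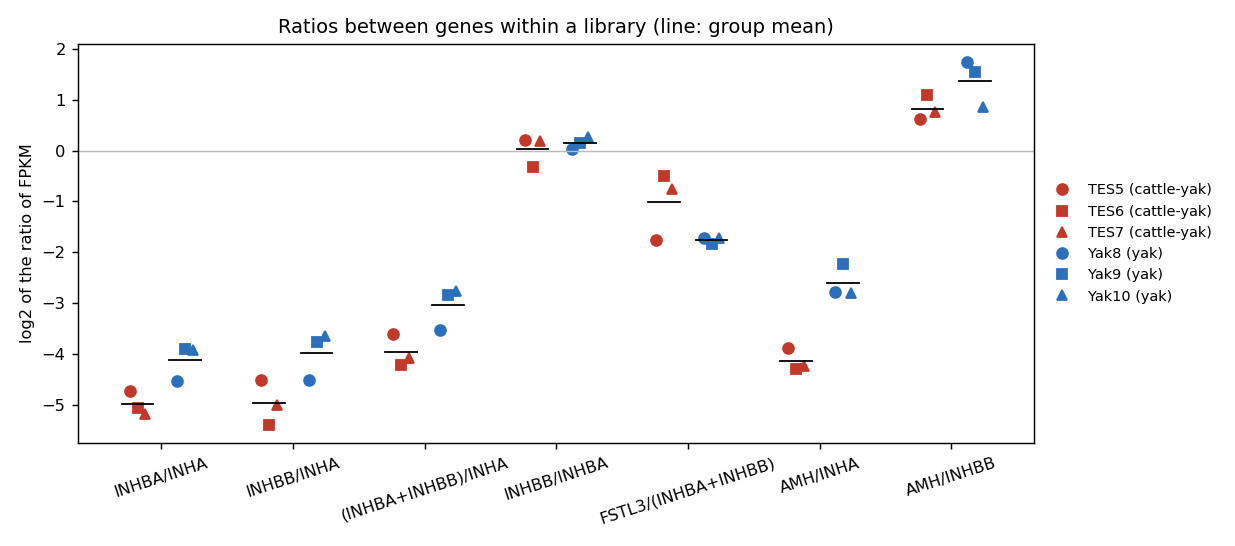
Ratios of FPKM between genes within a library (vertical axis, log2) for the 3 cattle-yak (red) and the 3 yak (blue), with the group mean as a line. The summed beta subunits and AMH relative to INHA lie lower in cattle-yak, with differences of −0.93 and −1.54 on the log2 scale. INHBB alone relative to INHA overlaps between the groups, and INHBB relative to INHBA differs by −0.12.

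These values come from whole testis, where fewer cells of a type and less RNA per cell cannot be told apart. Markers of Sertoli, Leydig, myoid and stromal cells moved with the groups. The counts of calls below stand beside 33.4% of all tested genes called higher and 20.8% called lower. All 8 tested Sertoli cell markers were called higher in cattle-yak, with a summed level of 1578 to 1727 FPKM against 383 to 399 in yak. So were all 5 tested Leydig cell markers (10413 to 12397 against 3333 to 4856 FPKM, mostly INSL3), all 7 myoid and all 6 stromal markers. With median-of-ratios scaling INSL3 had 0.94 and was not called. The endothelial and macrophage lists were mixed. Of 7 endothelial markers 3 were called higher and 1 lower (VWF, −1.85), and of 6 macrophage markers 3 were higher and 2 lower (AIF1, −3.78, and CD14, −1.52). Under median-of-ratios scaling the endothelial CDH5 (0.71), KDR (0.80) and CLDN5 (0.64) and the macrophage CD68 (0.65) and CD163 (0.83) lost their calls. C1QA, with 1.60, VWF, AIF1 and CD14 kept theirs. None of the tested Sertoli and Leydig markers was at 0 in any library. Of 6 spermatogonia markers 5 were called higher, with a median log2 (foldchange) of 1.91 over the list. Of 6 spermatocyte markers 1 was higher (SYCP3, 1.10) and 2 lower (PIWIL1, −3.32, and CCNA1, −3.31). With median-of-ratios scaling SYCP3 had 0.49 and was not called. The 4 spermatid markers with a row were called lower, from 7396 to 8996 FPKM in yak to 14.3 to 66.6 in cattle-yak. The part of these shifts in the rise of the 6 genes was not tested. Each gene was set against the markers of its own library instead.

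Relative to the mean of the 8 Sertoli markers (SOX9, WT1, GATA4, CLDN11, DHH, FSHR, CLU and KITLG), AMH lay lower in every cattle-yak than in any yak, while INHA overlapped between the groups. On the log2 scale AMH lay at −0.43, −0.74 and −0.57 in TES5, TES6 and TES7, that is below the markers, and at 0.81, 0.92 and 0.42 in Yak8, Yak9 and Yak10, above them. The groups did not overlap, and the difference of −1.30 stayed between −1.39 and −1.20 with any 1 marker left out (exact permutation test, two-sided, p = 0.1, adjusted 0.2 over 12 comparisons). Each of the 8 markers had a larger log2 (foldchange) than AMH, from 1.94 for CLU to 2.87 for KITLG. When each library was centred on these markers before the fit across all genes, AMH was called lower, with a log2 (foldchange) of −1.17 (SE 0.16, limma adjusted p = 8.4e-05). That scaling put the median of all tested genes at −1.88 and called 79% of them lower and 0.16% higher, so AMH lay above the median gene on that scale as well.

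INHA relative to the Sertoli markers was 3.45, 3.55 and 3.65 on the log2 scale in TES5, TES6 and TES7 and 3.58, 3.14 and 3.21 in Yak8, Yak9 and Yak10. Yak8 lay among the cattle-yak, and the difference of 0.24 was within the spread among animals (two-sided exact permutation test, p = 0.3, adjusted 0.45). It was 0.38 without Yak8 and 0.16 without Yak9. In the centred fit INHA had 0.40 (95% interval 0.04 to 0.76), under the threshold of 1. FSTL3 differed from the markers by 0.07 between the groups (exact permutation test p = 0.8), with an interval of −0.48 to 0.46 in the centred fit.

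INHBA, INHBB and FSTL1 lay lower relative to the Sertoli markers in every cattle-yak than in any yak, with differences of −0.63, −0.75 and −0.92 on the log2 scale and no overlap between the groups (exact permutation test, two-sided, p = 0.1 each, adjusted 0.2). Most genes were lower on this scale. In the centred fit INHBA, INHBB and FSTL1 had −0.60, −0.70 and −0.80 without a call. The median gene had −1.88, and 79% of all tested genes were called lower. Relative to the 5 Leydig markers INHA differed by 0.49 and AMH by −1.05 without overlap (exact permutation test p = 0.1 for each, adjusted 0.2). The Leydig list had a median log2 (foldchange) of 2.05 beside 0.51 for all tested genes, so a lower level on this scale is not particular to AMH. The share of all genes lower on this scale was not computed. With the median of that list in place of its mean, INHA differed by only 0.046 (exact permutation test p = 0.7), and AMH by −1.50. INHBA and INHBB overlapped between the groups on that scale, with differences of −0.37 and −0.50 (exact permutation test p = 0.4 for each). These differences moved to −0.11 and −0.17 without Yak10, to −0.68 and −0.86 without Yak8, and to −0.82 and −0.94 with the median of the list (exact permutation test p = 0.2 for each). FSTL1, INHBA and FSTL3 were also set against the 6 stromal and the 7 myoid markers, comparisons added after the values had been seen and not tested. The differences from the stromal markers were −1.17, −0.87 and −0.18 on the log2 scale, and those from the myoid markers were −0.58, −0.29 and 0.41. The stromal and myoid lists also rose, with a median log2 (foldchange) of 2.46 and 1.96. FSTL1 stood at 0.74, 0.72 and 0.70 above the stromal markers on the log2 scale in TES5, TES6 and TES7 and at 1.86, 1.70 and 2.10 in Yak8, Yak9 and Yak10.

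**Figure D3:**
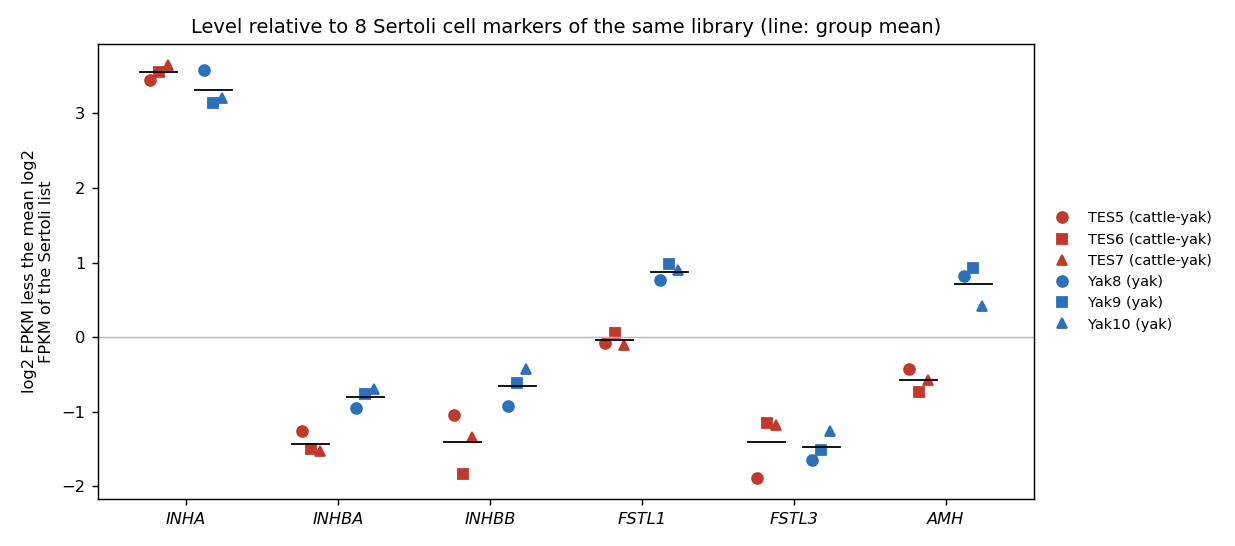
Level of each gene relative to 8 Sertoli cell markers of the same library (vertical axis, log2 FPKM less the mean log2 FPKM of the markers), with group means as lines. AMH lies below the markers in the 3 cattle-yak (red, −0.74 to −0.43) and above them in the 3 yak (blue, 0.42 to 0.92), while INHA and FSTL3 overlap between the groups.

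The receptors, SMADs, processing enzymes and regulators that work with these hormones were taken as a list of 38 symbols, of which 34 had a row and 30 were tested. Of these, 16 were called higher and 3 lower in cattle-yak, with a median log2 (foldchange) of 1.11 beside 0.51 for all tested genes, of which 33.4% were called higher and 20.8% lower. With median-of-ratios scaling 10 were higher and 5 lower, beside 17.6% and 27.9% of all tested genes. AMHR2, the type II receptor of AMH, had no row under that symbol, and nor had BAMBI, TDGF1 and CFC1.

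Among the receptors, both type II receptors of activin were higher. ACVR2A averaged 13.5 ± 1.96 FPKM in the cross and 3.43 ± 0.22 in yak (SD, n = 3 each), a log2 (foldchange) of 1.71 (limma adjusted p = 1.1e-05), and ACVR2B had 1.09, a call lost with median-of-ratios scaling (0.57). The type I receptor ACVR1B had 0.76, under the threshold of 1, and ACVR1C stayed below 0.3 FPKM in every library. None of the 3 tested type I receptors through which AMH can act was called, with 0.76 for BMPR1A, 0.20 for ACVR1 and −0.28 for BMPR1B. TGFBR3, or betaglycan, the co-receptor that lets inhibin compete with activin, had 29.1 ± 2.39 and 24.8 ± 5.61 FPKM (SD, n = 3 each) and a log2 (foldchange) of 0.24, within the spread between animals (limma adjusted p = 0.196). IGSF1, a membrane glycoprotein of Sertoli cells and pituitary once described as an inhibin-binding protein, had 1.94 (limma adjusted p = 3.1e-05).

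Of the 8 SMADs, 5 were called higher, beside 33.4% of all tested genes. SMAD1, SMAD5 and SMAD9, which carry signals of AMH and bone morphogenetic proteins, were all called higher, with 1.33, 1.45 and 1.47. SMAD2 and SMAD3, which carry the activin signal, were not called. SMAD2 had 0.55, and SMAD3 had 19.6, 16.0 and 15.2 FPKM in TES5, TES6 and TES7 against 15.7 in Yak8, 35.3 in Yak9 and 40.2 in Yak10, so that Yak8 lay within the cattle-yak range (log2 (foldchange) −0.71, limma adjusted p = 0.063). The shared partner SMAD4 had 1.41 and the inhibitory SMAD7 1.77 (limma adjusted p = 2.4e-05), while SMAD6 had 0.45 and was not called. With median-of-ratios scaling SMAD1, SMAD4, SMAD5 and SMAD9 lost their calls, SMAD7 kept its call with 1.29, and SMAD3 was called lower with −1.30. The difference between these groups of SMADs was not tested.

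Of the enzymes that cleave the precursors, FURIN had 1.12 and was called higher (0.54 and no call with median-of-ratios scaling), whereas PCSK5 and PCSK6 had −0.70 and −0.22 and were not (PCSK5 was called lower, with −1.24, under that scaling). Of the other ligands, GDF11 had 0.78 and was not called, and the liver-type subunit genes INHBC and INHBE were listed at 0 in all cattle-yak libraries and had at most 0.147 FPKM in yak. MSTN, the myostatin gene, was below the minimum, with 0.551, 0.454 and 0.250 FPKM in TES5, TES6 and TES7, 0.056 in Yak10 and 0 listed in Yak8 and Yak9. SPARC, a matrix glycoprotein related to FSTL1, was high in both groups, with 898 ± 39.6 and 157 ± 7.47 FPKM (SD, n = 3 each) and a log2 (foldchange) of 2.51 (limma adjusted p = 1.8e-07). FSTL4 and FSTL5, which share the name of the follistatin-like genes, were called lower instead. FSTL4 had 0.756, 0.970 and 0.444 FPKM in TES5, TES6 and TES7 against 4.50, 3.21 and 3.78 in Yak8, Yak9 and Yak10, and FSTL5 had at most 0.106 in cattle-yak and 2.0 to 2.33 in yak.

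The regulators of the inhibin and AMH genes were called higher in 6 of 7 cases, beside 33.4% of all tested genes. FSHR, the receptor of follicle-stimulating hormone, had 2.46, and NR5A1, the orphan receptor known as steroidogenic factor, 1.75. The transcription factors GATA4, WT1, SOX9 and NR0B1 had 2.64, 2.61, 2.18 and 2.18. FSHR, GATA4, WT1 and SOX9 were also on the Sertoli list, so the lists are not independent. CREM was called lower, with 23.8, 16.0 and 6.60 FPKM in TES5, TES6 and TES7 against 255, 255 and 265 in Yak8, Yak9 and Yak10, a log2 (foldchange) of −4.14 (limma adjusted p = 1.4e-05). CREM is known for an activator form made in spermatids as well as repressor forms, which are not separated here, and a less abundant second row with this symbol, whose reads cannot be assigned with certainty, is not counted.

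**Figure D4:**
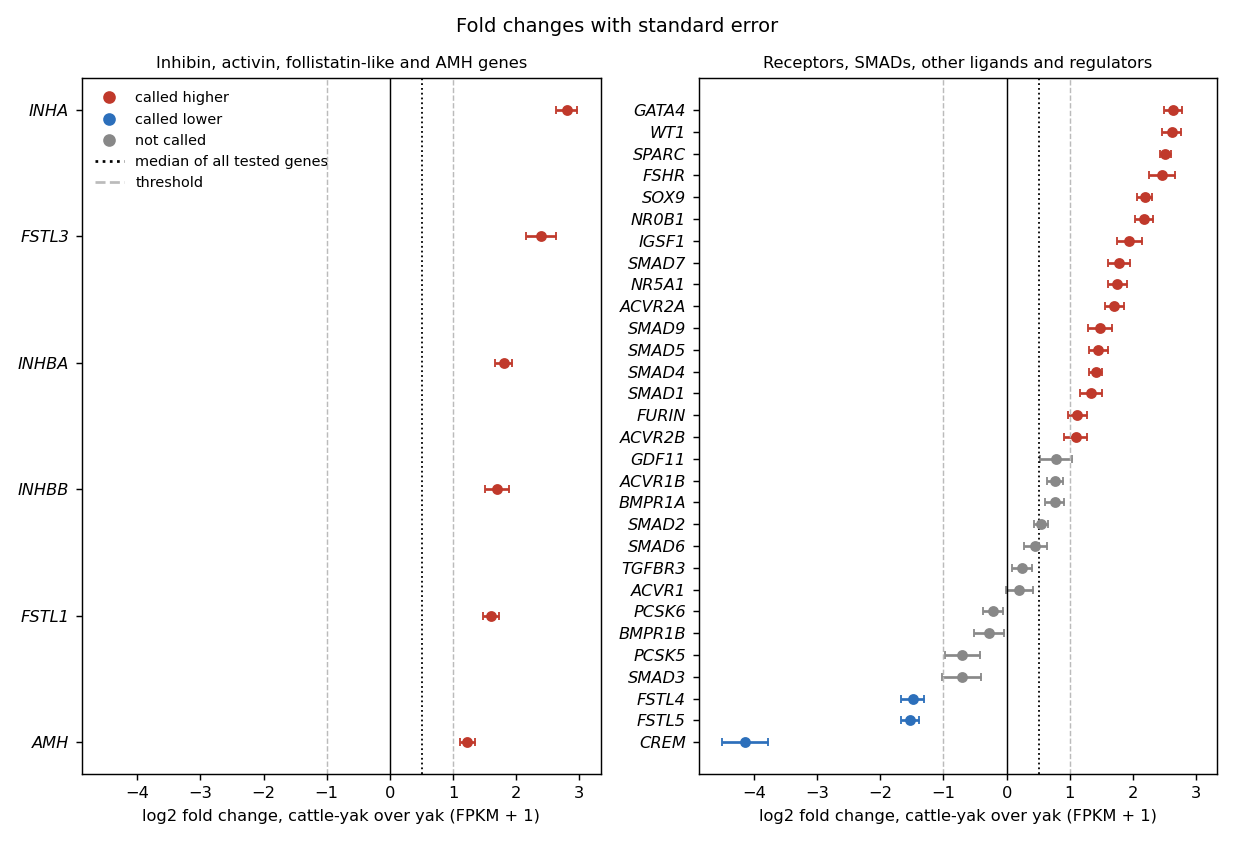
log2 (foldchange) of cattle-yak over yak on the scale of FPKM + 1 (horizontal axes) with the standard error from limma, for the 6 tested genes (left) and the 30 tested pathway genes (right), called higher in red, lower in blue and not called in grey. The dotted line marks the median of all tested genes (0.51) and the dashed lines the threshold of 1, and INHA (2.80) and FSTL3 (2.39) lie to the right of INHBA, INHBB, FSTL1 and AMH.

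Genes with the most similar profile over the 6 libraries were found by Pearson's r of log2 (FPKM + 1), as a description only, since the split between the groups fills most of r. INHA was most like TTPAL and SETD6, INHBA like MAGEA10 and TK1, INHBB like DYNC1I1 and DEFB123, FSTL1 like IL17RA and PRPF4, FSTL3 like DECR2 and ZNF677, and AMH like HEBP1 and LSS, with r of 0.9989 to 0.99996. INHA had 1220 genes of 14683 with r above 0.99 and INHBB 132.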

How the data were processed

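Testis RNA of 3 cattle-yak and 3 yak was compared. According to the methods, the authors used Trimmomatic, aligned all libraries to the yak genome LU_Bosgru_v3.0 by HISAT2 and name Cufflinks for FPKM and HTSeq for counts. The deposited values are FPKM, not scaled between libraries, so reads of cattle alleles in the hybrid were counted against yak sequence. The values are whole fragments per length and depth, so which tool gave them is uncertain. Fragments were recovered from the whole-number ratios of FPKM between libraries for 17973 genes within 0.03 fragments, and gene lengths came out within 0.05 of a whole base for 99.3% of the 15838 genes with 10 or more fragments in a library. For a symbol on several rows the most abundant row was used.

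limma 3.58.1 (R 4.3.3, two-sided, with a variance trend) was run on log2 (FPKM + 1). On simulated data for cattle-yak against yak with 15042 genes, it called 184 of 200 genes changed 4-fold and 2 unchanged genes. The changed genes were few, not low in level and equally up and down. The simulation thus lacked the wide shift of the real data and cannot give its rate of false calls. Ratios and levels relative to marker lists were compared with exact permutation tests over animals (scipy 1.17.1, Python 3.11.15), for 8 ratios and 12 pairs of gene and list. The planned FSTL3 to FST ratio was left out because FST was listed at 0 in Yak9, and the FST ratio was compared without a log. The text names every row with one of the 7 symbols, the pathway genes fitted and the 2 genes most like each gene.

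The genes and lists were chosen with earlier results of these data known. Alternatives were a pseudocount of 0.1, no minimum, a minimum of 5 FPKM, median-of-ratios scaling, centring on the Sertoli list, no trend, voom on the fragments and the omission of each animal. 1 gene of the pathway list is not reported here and was left out of its counts. Chromosome positions and sequences were not used here.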

Additional observations from a re-analysis of the deposited data

How the results depend on the processing

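With each animal left out, 6 of the 7 genes were called higher each time, over 4904 to 5134 genes called higher in all and 3076 to 3192 lower. The pseudocount, the minimum level, the trend and voom on fragments without size factors also left 6. Centring on the Sertoli list changed most: 24 genes in all were higher and 11878 lower, 0 of the 7 were higher and 1 lower, and 0 pathway genes were higher and 17 lower. It turned INHBA to −0.60, INHBB to −0.70, FSTL1 to −0.80, FSTL3 to −0.0086 and AMH to −1.17, since the list itself rose. With median-of-ratios scaling 2655 genes were called higher, 4190 lower, and 10 pathway genes higher and 5 lower, and with voom and these factors, added after seeing the data, 5 pathway genes were lower and 5 of the 7 genes were higher, FSTL1 with 1.02, while AMH had 0.65 without a call. At a minimum of 5 FPKM 1 pathway gene was lower, as fewer genes were tested.

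Some differences near 0 changed sign with 1 animal left out. These were INHBB to INHBA (−0.215 to 0.054, without TES6) and FST to the beta subunits (−0.0040 to 0.0064, without TES6, Yak9 or Yak10, on the ratio itself). FSTL3 did so relative to the Sertoli (−0.059 to 0.31, without TES6, TES7 or Yak8) and Leydig markers (−0.0047 to 0.63, without Yak8, and −0.13 with the median of that list). With FPKM + 1 the FST ratio differed by −0.045. As FST lay under 1 FPKM, that version mostly holds the added 1 over the beta subunit level. No paired analysis was possible because the numbers in the labels are not shared between the groups. FST, with 0 to 12 fragments per library, is limited by depth and by the FPKM + 1 scale.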
